A study of Mus musculus with 1 sample.

Results

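The 10 genes described here carry a TGF-beta signal from the cell surface to the nucleus or hold it back, and were chosen by name from the 32285 genes of the table. They are the receptors Tgfbr1, Tgfbr2 and Tgfbr3, the signal transducers Smad2, Smad3 and Smad4, the inhibitors Smad7, Ski and Skil, and the secreted target gene product Tgfbi. All 10 were detected. The study asked how the proton pump subunit Atp6v0a1 of colorectal cancer cells shapes anti-tumor immunity. Its single-cell arm is represented here by 1 library, labelled with the genotype WT, of MC38 tumors (a mouse colon carcinoma line) grown in C57BL/6J mice. The labels do not name the shRNA these tumor cells carried, and the library was read as the control pool from its WT label alone. According to the methods, cells of several tumors were mixed in equal proportions before capture, and a knockdown pool was not analysed here. Cells carry no mark of the mouse they came from, so there were no replicates and no test between animals was possible.

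TGF-beta binds the type II receptor Tgfbr2, which recruits and phosphorylates the type I receptor Tgfbr1. Tgfbr1 then phosphorylates Smad2 and Smad3, which enter the nucleus with Smad4 and change transcription. Tgfbr3 (betaglycan) presents ligand to the signaling receptors, Smad7 blocks the activated type I receptor, and Ski and Skil (SnoN) repress Smad-driven transcription. Tgfbi is an extracellular matrix protein named for its induction by TGF-beta. In tumors the pathway is known for matrix production by fibroblasts and for restraint of T cells.

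The library held 5307 called cells and 106631000 UMIs, with 511 to 231902 UMIs per cell. After the filters on mitochondrial share and doublet score, 4443 cells remained. They were grouped by marker genes into 428 Col3a1-high and 1283 Col3a1-low tumor-like cells, 1481 macrophage-like, 257 monocyte-like, 48 dendritic-like, 163 T and NK-like and 26 fibroblast-like cells, while 681 cells stayed unnamed. A further 39 granulocyte-like, 27 endothelial-like and 10 pericyte-like cells were not among the groups compared. The 10 genes and the other genes of the pathway lists were kept out of the genes used for clustering. The median depth was 24798 UMIs in Col3a1-high and 47439 in Col3a1-low tumor-like cells, 8885 in macrophage-like, 4587 in monocyte-like, 8844 in dendritic-like, 4167 in T and NK-like and 8522 in fibroblast-like cells. Both tumor-like groups were nearly without Xist (7.8 and 1.46 counts per 1000000 UMIs, CPM, against 855 in macrophage-like cells). The methods give female hosts, but low Xist was itself required for the tumor-like name, so these values are no separate support for it. The sample is labelled epithelial, but the keratin Krt18 was at 0 in both tumor-like groups, and 7 of 8 fibroblast markers were higher there than in myeloid cells. The collagen gene Col1a2 was at 6.30 CPM in Col3a1-high tumor-like cells and at 14088 in fibroblast-like cells.

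All levels below are CPM, the UMIs of a gene per 1000000 UMIs of a cell group, with exact 95% Poisson intervals in brackets. These intervals, and those of ratios and shares, cover counting error only, and fewer transcripts per cell cannot be told apart from a lower share of a larger RNA pool. Levels are compared between cell groups for 1 gene at a time.

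The starting points of 3 of the genes are shown because their levels differed widely between the cell groups. The sequences, credited to RefSeq on build GRCm38.p6, end at the base before the GENCODE start of Tgfbr1 and Tgfbi, leave 3 bases before that of Tgfbr2, and are given 5′ to 3′ on the strand of the gene. Capitals would mark a match to GTCTAGAC (a palindromic Smad-binding sequence), to CAGACA (a Smad box) or to TGACTCA (an AP-1 site) on either strand. No match was found in the 250 bases before the RefSeq start of these 3 entries, so all letters are in lower case. Of 32851 promoter entries of this length, 0.167% held GTCTAGAC, 17.1% held CAGACA and 4.46% held TGACTCA.
Tgfbr1, chr4:47352972-47353221, plus strand: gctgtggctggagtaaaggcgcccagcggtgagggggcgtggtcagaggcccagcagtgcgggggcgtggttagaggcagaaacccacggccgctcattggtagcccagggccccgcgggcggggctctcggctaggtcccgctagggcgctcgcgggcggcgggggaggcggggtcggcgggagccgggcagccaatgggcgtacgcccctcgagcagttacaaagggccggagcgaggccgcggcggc
Tgfbr2, chr9:116175364-116175613, minus strand: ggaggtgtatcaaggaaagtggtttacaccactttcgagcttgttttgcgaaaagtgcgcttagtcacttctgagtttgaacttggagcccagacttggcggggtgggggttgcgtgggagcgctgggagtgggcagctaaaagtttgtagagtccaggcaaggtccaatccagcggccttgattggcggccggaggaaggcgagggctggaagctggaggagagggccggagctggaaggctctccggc
Tgfbi, chr13:56609336-56609522, plus strand: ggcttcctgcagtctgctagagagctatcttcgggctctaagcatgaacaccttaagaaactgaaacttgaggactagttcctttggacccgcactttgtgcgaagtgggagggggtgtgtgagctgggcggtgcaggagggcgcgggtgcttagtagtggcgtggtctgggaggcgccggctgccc
A further Tgfbr1 entry starts 32994 bases into the gene and held 1 CAGACA, 203 bases before its start. Smad3 and Ski each had 1 entry and no match. Tgfbr3, Skil, Smad2, Smad4 and Smad7 had no entry in the table.

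In the GENCODE M21 annotation (GRCm38), Tgfbr1 (ENSMUSG00000007613) spans chr4:47353222-47414931 and Tgfbr2 (ENSMUSG00000032440) spans chr9:116084293-116175360. Tgfbi (ENSMUSG00000035493) lies at chr13:56609523-56639562, Ski at chr4:155154075-155222592, Skil at chr3:31095058-31122577 and Smad3 at chr9:63646767-63757994. Tgfbr3, at chr5:107106570-107289629, overlaps the predicted genes Gm43422, Gm43423 and Gm42900 on its own strand, and Smad4 overlaps AC132418.2 on the opposite strand. No gene of the annotation overlaps the other 8. The genes were sampled unevenly, from 693 UMIs for Smad3 to 16766 for Tgfbi over the kept cells.

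**Figure D1:**
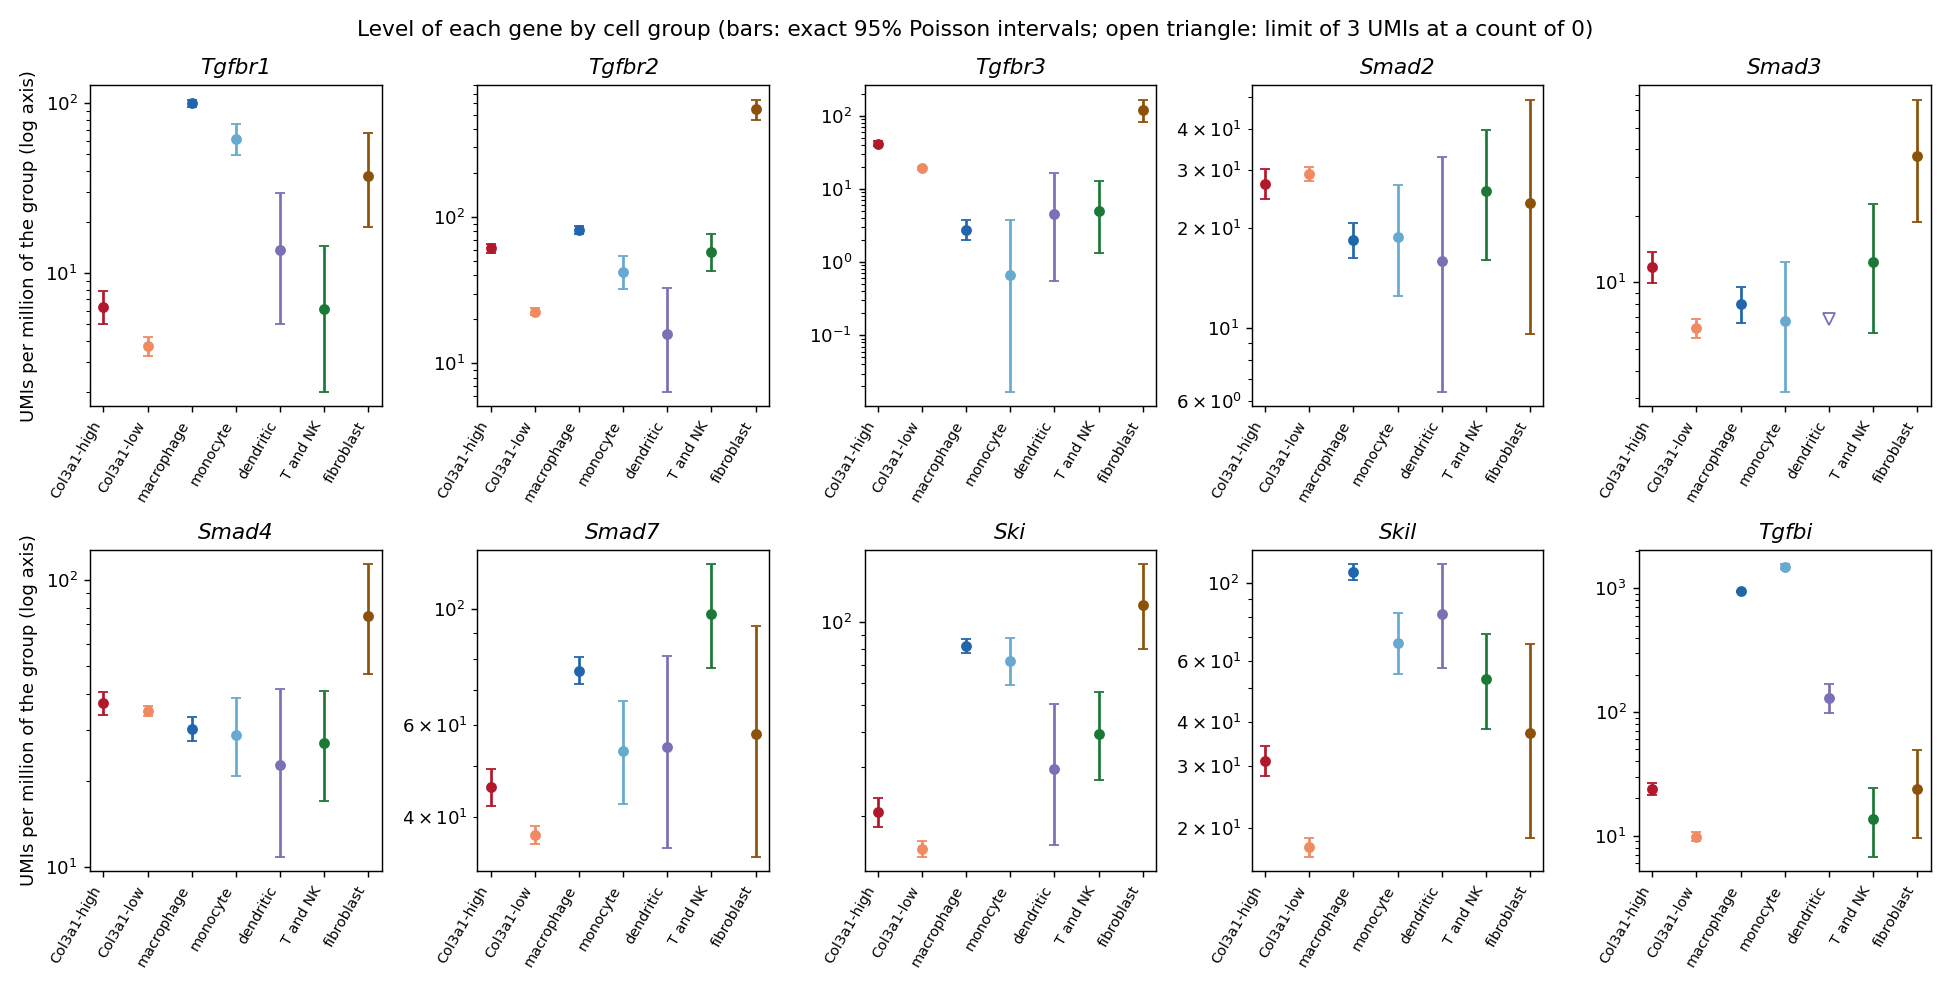
CPM (UMIs per 1000000 UMIs) of each cell group (log axes) for the 10 genes; points are group levels, bars exact 95% Poisson intervals, and the open triangle is the limit of 3 UMIs where none was counted. Tgfbr1 and Tgfbi stood highest in macrophage-like and monocyte-like cells, Tgfbr2 and Tgfbr3 in fibroblast-like cells, and Smad2 varied least.

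The type I receptor Tgfbr1 stood highest in macrophage-like and monocyte-like cells. Its level was 100 (94.8 to 105) in macrophage-like and 61.6 (49.6 to 75.5) in monocyte-like cells. It was 37.4 (18.7 to 66.9) in fibroblast-like cells and 13.6 (5.0 to 29.7) in dendritic-like cells. Both tumor-like groups were far lower, at 6.30 (5.0 to 7.84) in Col3a1-high and 3.70 (3.24 to 4.21) in Col3a1-low cells. In T and NK-like cells only 5 Tgfbr1 UMIs were counted in 163 cells, a level of 6.17 (2.0 to 14.4). Macrophage-like cells were above monocyte-like cells beyond counting error. The other neighbors in this order, from monocyte-like down to Col3a1-low tumor-like cells, were not separated from one another by their intervals.

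The type II receptor Tgfbr2 followed another order. Fibroblast-like cells stood highest at 547 (466 to 638), from 161 UMIs in 23 of 26 cells. Macrophage-like cells came next at 81.6 (77.0 to 86.5), then Col3a1-high tumor-like cells at 61.5 (57.3 to 66.0) and T and NK-like cells at 58.0 (42.6 to 77.1). Monocyte-like cells were at 42.2 (32.4 to 54.0), Col3a1-low tumor-like cells at 22.6 (21.4 to 23.8) and dendritic-like cells at 15.9 (6.39 to 32.8). T and NK-like cells were not separated from Col3a1-high tumor-like or from monocyte-like cells, and dendritic-like cells were not separated from Col3a1-low tumor-like cells.

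The balance of both receptor transcripts differed between groups. Macrophage-like cells held 0.817 Tgfbr2 UMIs per Tgfbr1 UMI (0.755 to 0.884) and monocyte-like cells 0.685 (0.489 to 0.954). The ratio was 6.10 (5.31 to 7.04) in Col3a1-low and 9.76 (7.75 to 12.5) in Col3a1-high tumor-like cells, 9.40 (3.76 to 30.3) in T and NK-like cells and 14.6 (7.97 to 29.9) in fibroblast-like cells. The intervals of macrophage-like and monocyte-like cells overlap none of these 4 others. In dendritic-like cells the ratio was 1.17 (0.336 to 4.2), on 7 and 6 UMIs. UMIs of both receptors fell in the same cell in 27.3% of macrophage-like cells (25.0 to 29.6), 9 of 26 fibroblast-like cells (34.6%, 17.2 to 55.7), 12.9% of Col3a1-high and 10.5% of Col3a1-low tumor-like cells, 7.39% of monocyte-like cells (4.51 to 11.3), 1 of 48 dendritic-like and 1 of 163 T and NK-like cells. These shares were taken at unequal depths. With every cell thinned to 1000 UMIs, 12 of 1460 macrophage-like cells and no cell of the other 6 groups kept both, among them 25 fibroblast-like cells.

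Tgfbr3, the co-receptor, was almost absent from leukocytes. Its level was 119 (82.8 to 165) in fibroblast-like cells, 41.3 (37.9 to 45) in Col3a1-high and 19.0 (17.9 to 20.1) in Col3a1-low tumor-like cells. These 3 groups differed from one another beyond counting error. Macrophage-like cells were at 2.77 (1.97 to 3.79), with 39 UMIs in 1481 cells, and monocyte-like cells had 1 UMI. Neighbors among the 4 leukocyte groups were not separated from each other.

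Smad2 had the most even level of the 10 genes. Smad2, a receptor-activated Smad, ranged from 15.9 (6.39 to 32.8) in dendritic-like cells to 29.2 (27.9 to 30.6) in Col3a1-low tumor-like cells, and no pair of neighbors in its order was separated. Smad4, the common partner Smad, was at 74.8 (46.9 to 113) in fibroblast-like cells and between 22.7 and 37.2 in the other 6 groups. Smad3, the other receptor-activated Smad, was sparse. It stood at 37.4 (18.7 to 66.9) in fibroblast-like cells on 11 UMIs, at 12.3 (5.92 to 22.7) in T and NK-like and 11.7 (9.92 to 13.8) in Col3a1-high tumor-like cells, and at 6.21 (5.61 to 6.86) in Col3a1-low cells. None was counted in 48 dendritic-like cells, where the interval reaches up to 8.38 CPM.

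Among the inhibitors, Smad7 had its highest level of the groups compared in T and NK-like cells, at 97.5 (77.2 to 122). Macrophage-like cells followed at 76.2 (71.7 to 80.9). A smaller share of T and NK-like (32.5%, 25.4 to 40.3) than of macrophage-like cells (40.2%, 37.7 to 42.8) had a Smad7 UMI, with overlapping intervals. Thinned as above, the shares were 5.26% (2.14 to 10.5) and 9.11% (7.68 to 10.7). The 78 T and NK-like cells led by Nkg7 were at 75.4 (55.2 to 101). The other T and NK-like sub-clusters were at 124 and 183, on 8 and 25 UMIs. Tumor-like cells were at 45.6 (42.0 to 49.5) where Col3a1 was high and at 37.0 (35.5 to 38.5) where it was low. Ski and Skil had lower levels in tumor-like than in macrophage-like cells. Ski was at 81.9 (77.2 to 86.8) in macrophage-like, 72.3 (59.3 to 87.3) in monocyte-like and 39.5 (27.0 to 55.7) in T and NK-like cells, against 20.6 (18.1 to 23.2) in Col3a1-high and 15.2 (14.2 to 16.2) in Col3a1-low tumor-like cells. Skil was at 108 (102 to 113) in macrophage-like, 81.8 (57.3 to 113) in dendritic-like, 67.6 (55.1 to 82.2) in monocyte-like and 53.1 (38.4 to 71.5) in T and NK-like cells, against 31.1 (28.1 to 34.3) and 17.6 (16.5 to 18.6) in the tumor-like groups. In fibroblast-like cells Ski was at 116 (80.0 to 161) and Skil at 37.4 (18.7 to 66.9).

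Tgfbi was abundant in monocyte-like cells, at 1501 (1439 to 1564), and in macrophage-like cells, at 943 (927 to 959). It was at 130 (98.1 to 168) in dendritic-like cells, and these 3 groups were separated from one another. In 39 granulocyte-like cells, with a median of 686 UMIs, Tgfbi was at 616 (381 to 942) on 21 UMIs. Col3a1-high tumor-like cells were at 23.9 (21.3 to 26.7), fibroblast-like cells at 23.8 (9.56 to 49.0), T and NK-like cells at 13.6 (6.78 to 24.3) and Col3a1-low tumor-like cells at 9.82 (9.06 to 10.6). Fibroblast-like cells had 7 Tgfbi UMIs in 26 cells.

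Free RNA was read from genes that a group should lack. In Col3a1-low tumor-like cells the macrophage genes Lyz2, C1qa, C1qb, C1qc and Cd68 stood at 0.322% to 0.523% of their macrophage-like level, and Tgfbi at 1.04%. In Col3a1-high tumor-like cells they stood at 0.609% to 0.90%, and Tgfbi at 2.53%. In T and NK-like cells the 5 genes stood at 1.04% to 2.61% and Tgfbi at 1.44%, within that range, so that Tgfbi there is read as background. Tgfbr1 stood at 6.17% in T and NK-like cells, 3.70% in Col3a1-low and 6.30% in Col3a1-high tumor-like cells. In the other direction, the tumor genes Rhox5 and Shisal2b stood at 5.95% and 7.33% of their tumor-like level in macrophage-like cells, where Tgfbr3 stood at 12.2%. In monocyte-like cells they stood at 8.58% and 13.7% and Tgfbr3 at 2.95%, so that Tgfbr3 there is read as background. The part of free RNA in the low levels above these ranges was not tested.

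**Figure D2:**
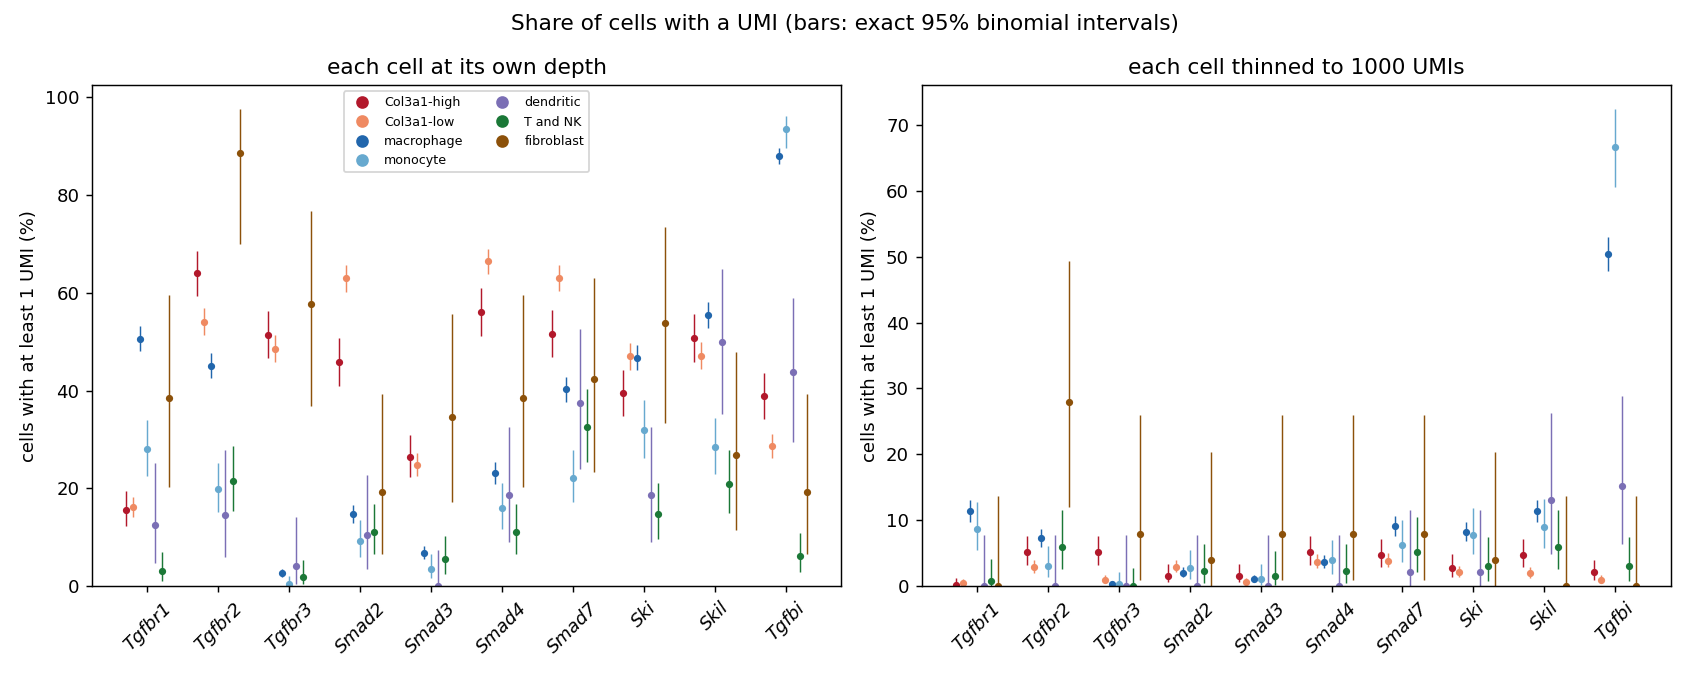
Share of cells with at least 1 UMI of each gene (%), at the cells' own depth (left) and with each cell thinned to 1000 UMIs (right); points are group shares and bars exact 95% binomial intervals. At their own depth 16.2% of Col3a1-low tumor-like cells had Tgfbr1; thinned, 0.546% did, against 11.4% of macrophage-like cells.

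Shares of cells with a UMI depended on depth. At their own depth, 45.1% of macrophage-like cells (42.5 to 47.7) and 54.1% of Col3a1-low tumor-like cells (51.3 to 56.8) had a Tgfbr2 UMI, against the order of the levels. Thinned to 1000 UMIs, the shares were 7.26% and 2.88%, with 21 macrophage-like and no tumor-like cells left out as too shallow. Tgfbi was found in 88.0% of macrophage-like cells (50.3% thinned), 93.4% of monocyte-like cells (66.7% thinned) and 6.14% of T and NK-like cells (3.01% thinned, 30 cells left out).

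The first comparison asks whether tumor-like cells rich in Col3a1, a fibrillar collagen gene that TGF-beta is known to raise, differ in the machinery of the pathway. Of the 10 genes, 3 were at least 2-fold higher in Col3a1-high than in Col3a1-low tumor-like cells and none was 2-fold lower. Tgfbr2 was 2.72-fold (2.49 to 2.97), Tgfbi 2.43-fold (2.11 to 2.79) and Tgfbr3 2.18-fold (1.96 to 2.42) higher. Over the 11504 genes with at least 10 UMIs expected in the smaller group at equal levels, 7.87% were higher at this fold and 4.29% were lower. The median ratio was 1.74 over the 10 genes and 1.10 over all genes tested. Free macrophage RNA was also higher in Col3a1-high cells, with Lyz2 at 67.1 against 36.9 CPM and C1qa at 62.9 against 28.3. Its part in the Tgfbi ratio was not tested.

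The other 7 stayed within 2-fold. Smad3 was 1.89-fold (1.55 to 2.29), Skil 1.77-fold (1.58 to 1.99) and Tgfbr1 1.70-fold (1.30 to 2.20) higher in Col3a1-high cells. Ski, at 1.35-fold (1.18 to 1.55), and Smad7, at 1.23-fold (1.12 to 1.35), differed little. The ratios of Smad2, 0.934 (0.830 to 1.05), and Smad4, 1.06 (0.961 to 1.18), included 1. Cells were grouped by other genes of the same cells, so these ratios describe the groups. In 5 alternative settings only Tgfbr2 passed 2-fold, and Tgfbr3 stood between 1.49 and 1.82 and Tgfbi between 1.40 and 1.87. The Col3a1-high group itself held more UMIs in each of these settings.

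**Figure D3:**
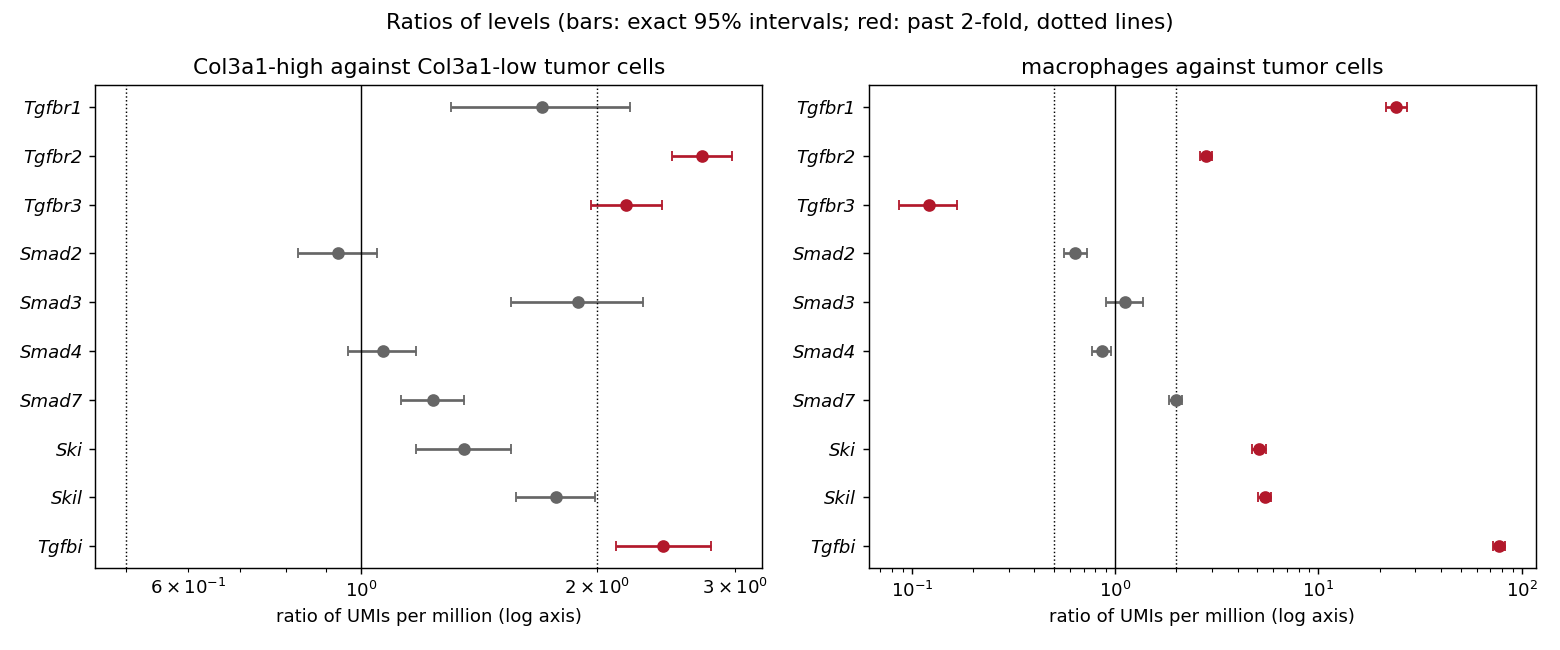
Ratio of CPM (log axes) for Col3a1-high over Col3a1-low tumor-like cells (left) and macrophage-like over all tumor-like cells (right); points are ratios, bars exact 95% intervals, dotted lines 2-fold either way and red points those past it. Tgfbr2, Tgfbr3 and Tgfbi lay past 2-fold on the left, and Tgfbi at 77.4 and Tgfbr1 at 24.2 lay farthest out on the right.

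Col3a1-low tumor-like cells were not uniform. They came from a cycling cluster of 1046 cells, with Top2a at 307 CPM and a median depth of 51866 UMIs, and from a cluster of 237 cells led by Lsm7, with a median depth of 20785 UMIs. The nuclear RNA Malat1 was at 2751 CPM in the first, 125 in the second and 7863 in Col3a1-high cells. Smad7 was at 40.4 in the cycling and 8.41 in the Lsm7-led cluster, a 4.80-fold difference (3.68 to 6.37). Skil differed 2.60-fold (1.95 to 3.56), Tgfbr3 2.36-fold (1.81 to 3.14) and Smad4 2.32-fold (1.91 to 2.84) in the same direction, while Tgfbi, with a ratio of 1.02 (0.789 to 1.35), did not. Against the cycling cluster alone, Tgfbr2 was 2.63-fold, Tgfbi 2.42-fold and Tgfbr3 2.05-fold higher in Col3a1-high cells. Against the Lsm7-led cluster alone, 8 of the 10 genes passed 2-fold, Smad7 at 5.42-fold (4.12 to 7.26). The share of all genes past 2-fold against that cluster was not recorded, so this count has no background to be read against. The part of the Malat1 difference in these ratios was not tested.

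**Figure D4:**
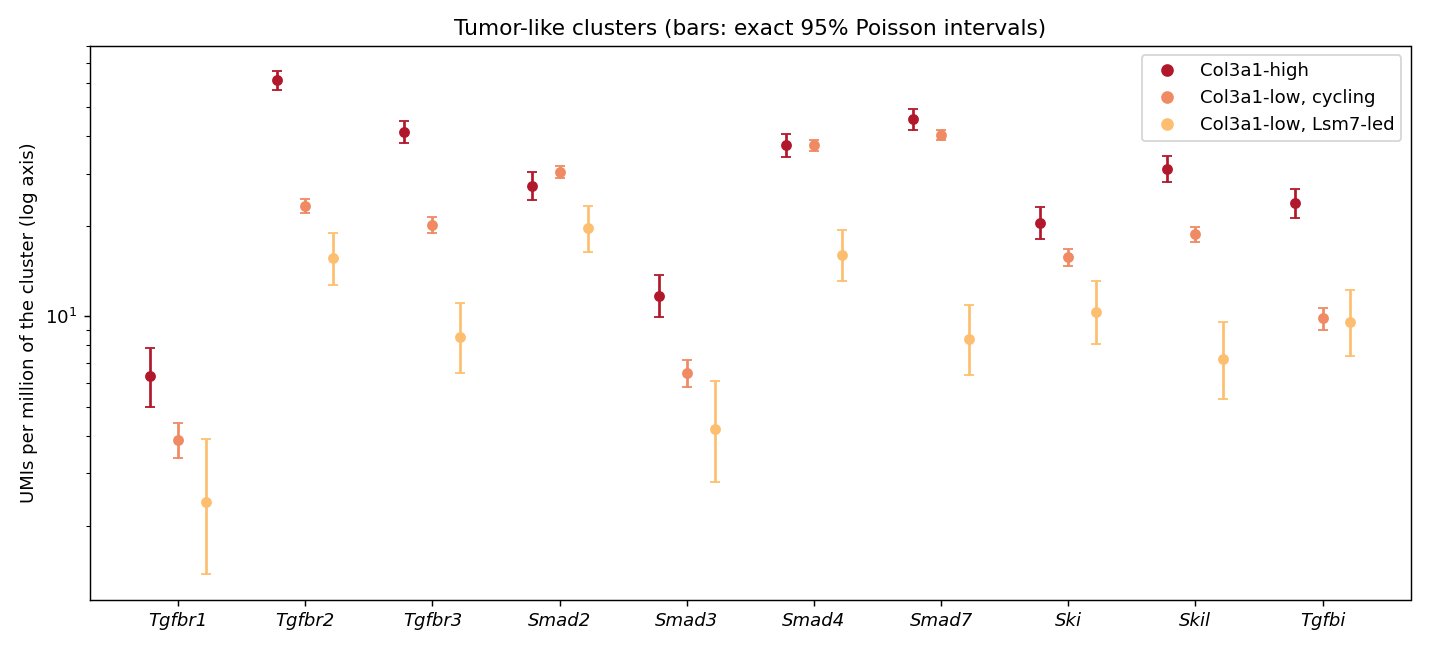
CPM of each tumor-like cluster (log axis) for the 10 genes; points are cluster levels and bars exact 95% Poisson intervals. The Lsm7-led cluster had the lowest point value for all 10 genes, with Smad7 at 8.41, and its ratio to the cycling cluster included 1 for Tgfbr1 and Tgfbi.

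The second comparison sets macrophage-like cells against all 1711 tumor-like cells. Here 5 of the 10 genes were at least 2-fold higher in macrophage-like cells and 1 was 2-fold lower, against 20.1% higher and 26.6% lower over the 12191 genes tested. Tgfbi was 77.4-fold (72.4 to 82.9), Tgfbr1 24.2-fold (21.4 to 27.4), Skil 5.43-fold (5.05 to 5.83), Ski 5.09-fold (4.69 to 5.52) and Tgfbr2 2.80-fold (2.61 to 3.01) higher. With levels as the mean over cells Tgfbr2 was 1.75-fold higher, short of 2-fold, and Tgfbi 43.4-fold. Tgfbr3 was 8.20-fold (5.98 to 11.6) lower, and at 0.338 of its tumor-like level with groups gated cell by cell. Smad7, with a ratio of 1.98 (1.85 to 2.13), lay just inside 2-fold. Smad2, at 0.638 (0.558 to 0.726), and Smad4, at 0.857 (0.772 to 0.95), were somewhat lower in macrophage-like cells, and the ratio of Smad3, 1.12 (0.901 to 1.37), included 1.

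Against monocyte-like cells, none of the 9 genes tested passed 2-fold in macrophage-like cells, where 8.07% of 8366 genes were higher and 1.26% lower. Tgfbr2 was closest, at 1.94-fold (1.5 to 2.54), followed by Tgfbr1 at 1.62-fold (1.31 to 2.03), Skil at 1.59-fold (1.30 to 1.97) and Smad7 at 1.42-fold (1.13 to 1.81). Tgfbi went the other way, 1.59-fold (1.52 to 1.67) higher in monocyte-like cells. Ski, Smad2, Smad3 and Smad4 had ratios whose intervals included 1.

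Within the macrophage-like cells, Tgfbi and the receptors varied between sub-clusters. A cycling sub-cluster of 191 cells led by Arl6ip1 had Tgfbi at 1214 CPM, 1.30-fold (1.24 to 1.36) above the 568 cells led by the antigen presentation gene H2-Eb1 and 1.40-fold (1.34 to 1.47) above the 459 cells led by the elastase gene Mmp12 and by Arg1. The H2-Eb1-led cells had 1.36-fold more Tgfbr1 (1.21 to 1.55), 1.34-fold more Tgfbr2 (1.17 to 1.54) and 1.36-fold more Skil (1.21 to 1.54) than the Mmp12-led cells, and the same Smad7 level within counting error (ratio 0.998, 0.868 to 1.15).

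The smallest sub-cluster, 22 cells led by Retnla with Folr2 and Lyve1 (genes of resident macrophages), had more Tgfbr2 and less Tgfbr1. Tgfbr2 was 2.36-fold (1.56 to 3.43) above the other macrophage-like cells, with 28 UMIs, and Smad4 2.73-fold (1.40 to 4.82), with 4 of its 12 UMIs in 1 cell. Tgfbr1 had 3 UMIs and a ratio of 0.202 (0.0416 to 0.591), Smad7 had 1 UMI and a ratio of 0.0882 (0.00223 to 0.492), and Tgfbi was at 0.329 of the level in the others (0.240 to 0.438). A shallow sub-cluster of 241 cells, with a median of 1949 UMIs, Xist at 2151 and Malat1 at 40964 CPM, had the highest Smad7 and Skil of the macrophage-like cells, both at 190 on 111 UMIs each. The part of depth and nuclear RNA in that was not tested.

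**Figure D5:**
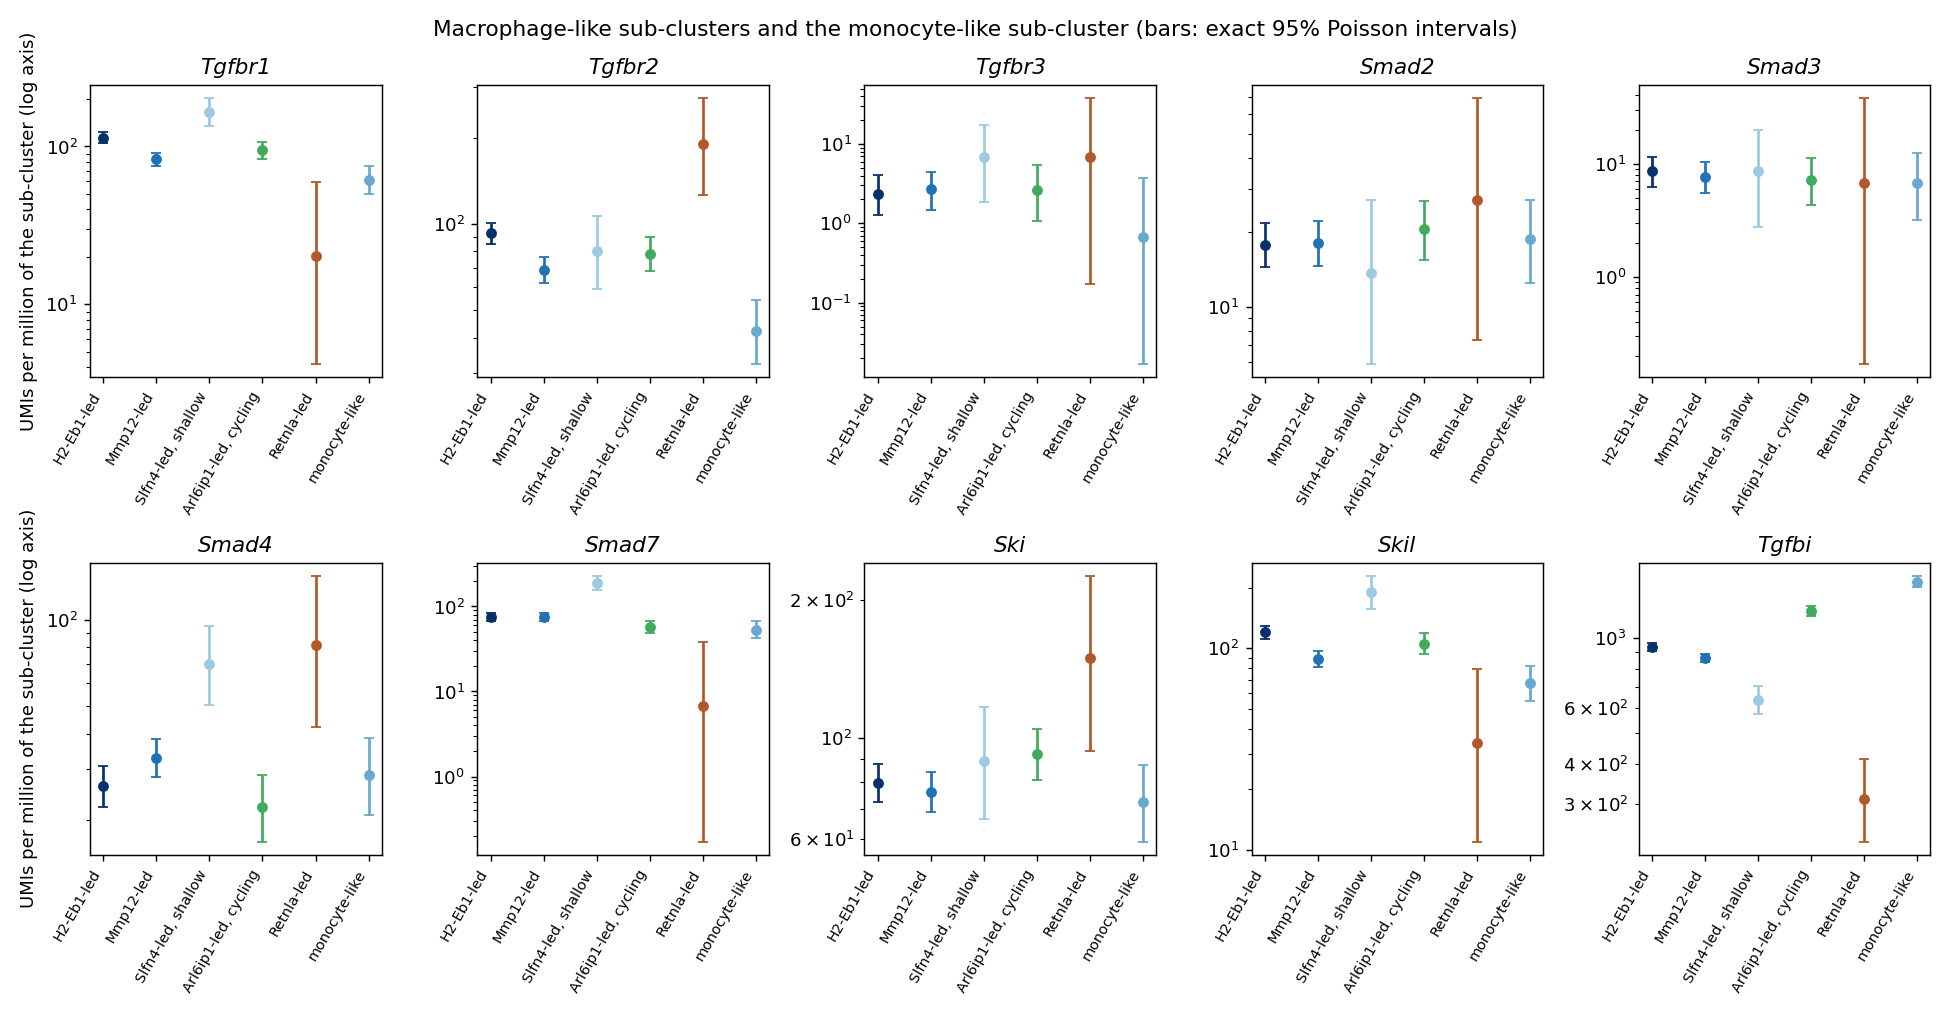
CPM of each macrophage-like sub-cluster and of the monocyte-like cells (log axes); points are sub-cluster levels and bars exact 95% Poisson intervals. The Retnla-led cells had the highest Tgfbr2 and the lowest Tgfbr1, Smad7, Skil and Tgfbi, and the monocyte-like cells had the highest Tgfbi.

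T and NK-like cells were next set against macrophage-like cells. Of 8 genes tested, 4 were at least 2-fold lower and none was higher, against 18.6% lower and 7.97% higher over 6829 genes. Tgfbi was 69.5-fold (38.8 to 139), Tgfbr1 16.2-fold (6.93 to 50.0), Ski 2.08-fold (1.46 to 3.05) and Skil 2.03-fold (1.5 to 2.82) lower. Since Tgfbi in T and NK-like cells is read as background, its fold is a lower bound, and with 10 neighbors in the clustering Tgfbi stood at 0.0748 of its macrophage-like level. Tgfbr1 was at 0.117 with groups gated cell by cell, and Skil missed 2-fold in some settings, with a ratio of up to 0.569. Tgfbr2, which T cells need to sense TGF-beta, had a ratio of 0.710 (0.519 to 0.951), and Smad7 one of 1.28 (1.005 to 1.61). The ratios of Smad2 and Smad4 included 1. Tgfbr3 and Smad3 had too few UMIs for the comparison.

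Among the T and NK-like cells, 36 cells led by Tnfrsf4 and Tnfrsf18 with Ctla4 and Il2ra, genes of activated and regulatory T cells, had Smad7 at 183 and Skil at 110 CPM. In the 78 cells led by the cytotoxic genes Nkg7 and Gzmb they were at 75.4 and 36.1, a 2.43-fold (1.43 to 4.04) and a 3.05-fold (1.47 to 6.15) difference on 25 and 15 UMIs. A single cell held 9 of the 25 Smad7 UMIs. Tgfbr2 had 6 UMIs in the first and 38 in the second, with a ratio of 0.706 (0.244 to 1.68). The remaining 49 cells were shallow, with a median of 925 UMIs, and were led by the mast cell proteases Mcpt1 and Mcpt2.

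The last comparison sets the 26 fibroblast-like cells against all tumor-like cells. The group held 294301 UMIs, so that only 2 of the 10 genes reached the minimum of 10 expected UMIs. Of these Smad4 was 2.11-fold (1.32 to 3.21) higher and Smad7, at 1.5-fold (0.874 to 2.41), was not separated, against 8.96% higher and 24.3% lower over 3484 genes. Smad4 was at 1.25-fold with groups gated cell by cell. The minimum is set on both groups pooled, so a gene that is low in tumor-like cells can miss it however high it stands in fibroblast-like cells. Values of the 8 others are given without a call. Tgfbr2 was 18.8-fold (15.9 to 22.1), Tgfbr1 9.03-fold (4.46 to 16.4), Ski 7.18-fold (4.95 to 10.1), Smad3 5.24-fold (2.60 to 9.44) and Tgfbr3 5.23-fold (3.63 to 7.31) higher in fibroblast-like cells. The ratios of Smad2, Skil and Tgfbi included 1. A single cell held 33 of the 161 Tgfbr2 UMIs.

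Other genes of the pathway came from 4 lists, of 10 further receptors, 4 further Smads, 14 regulators and 14 targets. The target list is not limited to induced genes, since the paper cites Id2 as reported to be repressed by SMAD3 signaling. Counts of targets higher or lower are therefore no measure of pathway output. Between Col3a1-high and Col3a1-low tumor-like cells, 7 of 11 targets tested were higher and none lower, against 7.87% higher and 4.29% lower over all genes tested, and the median ratio was 2.29 against 1.10. They included the matrix protein gene Fn1 at 4.95-fold (4.86 to 5.04), the Id transcription inhibitor gene Id3 at 3.05-fold (2.85 to 3.26) and Ccn1 at 2.49-fold (2.35 to 2.65). Fn1 was also among the 10 leading genes of the Col3a1-high cluster. Of 8 further receptors tested only Acvrl1, a type I receptor best known from endothelium, was higher, at 5.12-fold (3.80 to 6.91). Of 3 further Smads only the inhibitory Smad6 was, at 2.27-fold (1.31 to 3.84), and none of 14 regulators passed.

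Between macrophage-like and tumor-like cells the lists split, and their counts stand against 20.1% higher and 26.6% lower over all genes tested, with a median ratio of 0.851. Of 8 further receptors tested, 3 were higher in macrophage-like cells and 2 lower (median 0.980), with Acvrl1 at 36.8-fold (31.5 to 43.2) and the co-receptor gene Eng at 4.66-fold (4.17 to 5.2). Bmpr1a, a BMP type I receptor, was at 0.130 (0.0854 to 0.191) of its tumor-like level and the activin receptor gene Acvr1b was 2.61-fold (2.0 to 3.39) higher. Of 3 further Smads Smad6 was higher, at 3.30-fold (2.20 to 4.89). Of 14 regulators 3 were higher and 4 lower (median 0.845), shares near those of all genes, with the endocytic adaptor gene Dab2 at 9.12-fold (8.71 to 9.55) and Tgif1, a Smad co-repressor, at 2.96-fold (2.74 to 3.20). Of 11 targets 3 were higher and 5 lower (median 0.505). Id2 was 42.2-fold (38.5 to 46.4) higher, while Cdkn2b, a cell cycle inhibitor, was at 0.0680 (0.0529 to 0.0860) of its tumor-like level, within the range of the free tumor RNA (5.95% to 7.33%), and is read as background.

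Against monocyte-like cells, macrophage-like cells had more Pmepa1, a feedback inhibitor of the receptor, at 2.33-fold (2.09 to 2.61), the 1 of 11 regulators past 2-fold. Of 8 targets, 2 were higher, among them Id2 at 2.19-fold (1.89 to 2.54), and Id1, at 0.445 (0.339 to 0.592), was lower. None of 4 further receptors and 2 further Smads passed. Over all genes tested, 8.07% were higher and 1.26% lower there.

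In T and NK-like cells all 3 further receptors tested were lower than in macrophage-like cells, Acvrl1 with no UMI against 1267, and so were 5 of 6 targets. The other target, Id2, named after its values were seen, was 2.83-fold (2.60 to 3.07) higher. Over all genes tested, 18.6% were lower and 7.97% higher in this comparison. Of 8 regulators 2 were higher and 3 lower, with Dab2 at 0.0315 (0.0144 to 0.0599), and the 1 further Smad tested did not pass. In fibroblast-like cells 6 of 8 targets were higher than in tumor-like cells, with Ccn1 at 12.4-fold (10.8 to 14.1), and of 4 regulators Pmepa1 was higher, at 2.10-fold (1.87 to 2.35), and Dab2 lower, on 2 UMIs. Over all genes tested, 8.96% were higher and 24.3% lower there. None of the further receptors and Smads reached the minimum there.

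The genes whose levels most resembled those of the members over 9 cell groups were found by Pearson's r of log2(CPM + 1) among 9313 genes with at least 500 UMIs. These groups include the 27 endothelial-like and 10 pericyte-like cells. No Tgfbr1 UMI was counted in the endothelial-like cells, and no Tgfbr3 or Tgfbi UMI in the pericyte-like cells, and these counts of 0 entered r. Groups share 1 library and differ in depth, and r is a description. For Tgfbr1 they were Pla2g15 (r = 0.957), Tnfsf13b (0.952) and the macrophage growth factor receptor gene Csf1r (0.945). For Tgfbi they were Slc29a3 (0.980), the lipopolysaccharide co-receptor gene Cd14 (0.969) and Snap23 (0.962). For Tgfbr3 they were Cpne8 (0.976), Gprc5b (0.957) and Kif21a (0.952), and for Tgfbr2 Dyrk2 (0.949), Ptdss1 (0.937) and Saa3 (0.925). Among the members themselves the highest r was 0.852, between Skil and Tgfbi.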

How the data were processed

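Single cells of MC38 tumors were captured with the 10x Genomics 3' v3.1 kit and sequenced as 1 library. The authors deposited raw UMI counts per gene and called cell, made with Cell Ranger (5.0.1 in the matrix header, while the methods name another major version) on GRCm38. A mitochondrial share above 20% removed 667 cells and a minimum of 200 genes removed 0. The 197 cells with the highest doublet scores, against 2 simulated doublets per cell and at 0.8% per 1000 called cells, were then removed. Each cell was scaled to 10000 counts before taking logarithms, and 2000 variable genes without the members and the pathway lists, 30 principal components and 20 neighbors went into Leiden clustering at a resolution of 0.5 (13 clusters). Myeloid, T and NK and stromal clusters were clustered again with 1000 genes and 15 components, giving 23 clusters and sub-clusters in all.

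Names ending in -like required 3 or more genes of a marker list (4 for T cells) with 5 UMIs or more and 2 times a reference level. The reference was all other cells, except for tumor markers, which were judged against the myeloid clusters. Myeloid sub-clusters took the list with most genes among their 10 leading genes. Those without such a gene were named macrophage-like if deep enough and raised against the non-myeloid cells. The H2-Eb1-led, Mmp12-led and Arl6ip1-led sub-clusters were named this way. Tumor-like clusters needed Shisal2b and Rhox5 at 5 times their myeloid level and Xist at no more than 0.1 of it, and Col3a1-high ones 3 times the Col3a1 level of the other tumor-like clusters. A cluster whose median depth was below 0.333 of the library's needed a marker among its 10 leading genes. This rule was set after the clusters were seen. Levels are summed UMIs per 1000000 (CPM). A gene was tested in a comparison where the smaller group would expect at least 10 UMIs at equal levels, and called at a ratio of 2 or 0.5. No p-value was computed, since there is 1 library. Intervals are exact 95% Poisson or Clopper-Pearson intervals. A count of 0 is drawn at a limit of 3 counts, below the upper end of its interval. Ratios and calls were run on simulated Poisson counts with planted changes. Those counts follow the model of the intervals and hold no spread between cells, so they check the calculation only. The members, pathway lists and comparisons were chosen with earlier results of these data known. All 10 genes are described in every group. Of the pathway lists, genes past 2-fold with at least 20 UMIs in the higher group could be named, up to 4 per list and comparison by the size of the ratio, and the 3 genes of highest r were found for each member. The values of 1 gene of the target list are not reported here. Alternatives are in the closing section. The software was Python with numpy, scipy, scikit-learn, igraph and leidenalg.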

Additional observations from a re-analysis of the deposited data

How the results depend on the processing

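No paired analysis was possible because there is 1 library in 1 group. No ratio of a gene past 2-fold changed direction under any alternative. The count of genes past 2-fold between Col3a1-high and Col3a1-low tumor-like cells fell from 3 to 1, Tgfbr2, with a mitochondrial limit of 10%, with no such limit, with doublets kept, with 20 principal components and with groups gated cell by cell, where Tgfbr3 stood between 1.49 and 1.82 and Tgfbi between 1.40 and 1.87. These settings also changed the Col3a1-high group itself, from 12700790 UMIs to between 22919617 and 26476017, or to 13199363 with gating. The count was 8 against the Lsm7-led cluster alone, an alternative chosen after seeing the data and without a recorded share over all genes. At a resolution of 0.3 no tumor-like cluster was Col3a1-high, and that comparison gave no value. Tgfbr2 stayed between 2.03 and 3.94. Between fibroblast-like and tumor-like cells the count was 2 with at least 500 genes per cell, with doublets kept and, chosen after seeing the data, with the Saa3-led sub-cluster joined; it was 0 with levels as the mean over cells, with gating and with at least 30 expected UMIs, and gave no value with 20 principal components or a resolution of 0.8. Over the settings that gave a value, Tgfbr2 there lay between 12.7 and 18.9. The macrophage-like comparisons kept their counts within 1.5 times, and Smad7 passed 2-fold against tumor-like cells in some settings, with ratios from 1.85 to 2.27, while Tgfbr2 came to 1.75 with levels as the mean over cells. Against tumor-like cells, Tgfbi in macrophage-like cells ranged from 43.4 to 78.7 and Tgfbr1 from 16.9 to 24.6. Against macrophage-like cells, T and NK-like cells had Tgfbi at 0.0123 to 0.0748, Tgfbr1 at 0.0468 to 0.117 and Skil at 0.461 to 0.569, past 2-fold in some settings only. Of 70 member levels, 46 stayed within their intervals with levels as the mean over cells. Thinning moved 67 of 70 shares. Depth limits Tgfbr1 in T and NK-like cells and all genes in fibroblast-like cells.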

Other observations

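Among the 681 cells that no marker list named, 113 cells with Malat1 at 81045 CPM, led by Malat1 and Dnm3os, had Smad7 at 251 CPM on 128 UMIs and Skil at 133 on 68 UMIs. A shallow sub-cluster of 67 cells led by Saa3, with Col3a1 at 5865 CPM and a median depth of 701 UMIs, had Tgfbr2 at 431 on 23 UMIs and Skil at 244 on 13 UMIs. In 27 endothelial-like cells Tgfbr2 was at 158 (86.3 to 265) and Smad7 at 102 (46.4 to 193), and in 10 pericyte-like cells Tgfbr2 had 5 UMIs.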
